A study of Homo sapiens with 4 samples.

Results

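Direct targets of p53, genes whose regulatory DNA p53 binds and whose transcription it raises, were followed in a pair of head and neck squamous cell carcinoma (HNSCC) lines and in their cisplatin-resistant derivatives. The set holds 35 genes, chosen by name from targets that are widely reported for p53, out of 43305 gene names with a value on the arrays. HN4 and HN30 are established HNSCC cell lines, grown in DMEM with fetal bovine serum. The resistant cells HN4/DDP and HN30/DDP, labelled HN4_CR and HN30_CR in the deposited records, were made from HN4 and HN30 by stepwise increases of cisplatin and were kept for 48 h in medium with 20 μM cisplatin, while the parental cells are given without the drug. There was 1 single-colour Agilent expression array for each of the 4 conditions and none of resistant cells without the drug, so resistance and the presence of cisplatin cannot be told apart. Each line is also represented by 1 resistant derivative.

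p53 is a transcription factor that is held low by the ubiquitin ligase MDM2 and is stabilised when DNA is damaged, for example by the platinum adducts that cisplatin leaves. It then raises genes that stop the cell cycle, repair DNA, switch p53 itself off again or prepare the cell for apoptosis, and different targets answer with different strength and timing. The related protein TP63, a regulator of squamous epithelium, can bind many of the same sites.

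Levels are given as log2 of the processed signal minus the 75th percentile of the same array, so that 0 is that percentile, and a difference is the resistant array minus its parental array. A gene was counted as higher or lower when its difference passed 1 on the log2 scale (a fold of 2) and its probe was well above background on the brighter array of the pair. All 35 genes were well above background on all 4 arrays, and no spot was saturated. The error that the scanner software attached to each spot gave these differences an SD of 0.20 at the median and 0.30 at most, which covers the spot and not the spread between cultures. With a single array for each condition no line can be tested by itself, and the share of all measured genes that passed the same threshold is given as the background. Precision is limited by the number of arrays. The HN4 and HN30 comparisons share no array, and all 4 arrays lay on the same slide and were scanned together.

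Of the listed squamous epithelial markers, 10 of 10 were well above background on the HN4, HN4/DDP and HN30 arrays and 9 of 10 on the HN30/DDP array, where KRT6A was not. Their summed signal ranged from 61459 in HN30/DDP to 87066 in HN4/DDP, while single keratins moved far more. KRT5 had differences of -4.04 (HN4/DDP) and -1.93 (HN30/DDP), and KRT17 of 3.30 and 0.19. KRT6A was higher by 3.33 in HN4/DDP and at least 183-fold lower in HN30/DDP. Such a bound sets the brighter array against the lowest signal well above background on the dimmer one, or against the probe's own signal there if higher. Of 6 fibroblast markers 2 were well above background on each array, and their summed signal was 195 in HN4 against 510 in HN4/DDP, and 99.5 in HN30 against 370 in HN30/DDP. Of them COL1A1, well above background on all 4 arrays, had differences of 1.73 (HN4/DDP) and 2.43 (HN30/DDP) and PDGFRB, the other one, of -0.0058 and 0.63, while the markers COL1A2, COL3A1, DCN and LUM were not well above background on any array. Of 3 leukocyte markers measured, 2 or 3 were well above background, with a summed signal of 1624 in HN30 and 19008 in HN30/DDP, and endothelial markers summed to 95.8 to 154. In HN30/DDP CD14 was higher by 3.48, CD3E, well above background on that array only, was at least 1.38-fold higher, and PTPRC differed by 0.16. The part of these markers in the results was not tested. In such bulk RNA, fewer cells of a kind and less RNA per cell cannot be told apart. The HN30/DDP array had the most genes well above background, 27625, against 23950 to 25525 on the others.

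In HN4/DDP, 19 of the 35 p53 targets were higher than in HN4 and 0 were lower, where 9.39% of 26853 genes were higher and 8.57% were lower. In HN30/DDP, 12 of 35 were higher than in HN30 and 3 were lower, against a background of 19.7% higher and 13.3% lower among 28330 genes. The share of higher targets was thus 54.3% in HN4/DDP and 34.3% in HN30/DDP. When the arrays were scaled to their median in place of the 75th percentile, the split in HN30/DDP became 10 higher and 8 lower. That scaling moved the median of all genes in HN30/DDP from 0.05 to -0.37, and the differences of the targets moved with it. After quantile normalization the median of all genes there was -0.05. Shares of all genes past a difference threshold are given at the 75th percentile scaling only, also where counts at another scaling follow. The 5 added lower genes were TRIAP1 (-1.37), TNFRSF10A (-1.27), AEN (-1.02), BLOC1S2 (-1.004) and RPS27L (-1.003). In HN30/DDP the sign of the difference turned under at least 1 of the alternatives for MDM2, PPM1D, CCNG1, FDXR, PERP, DRAM1, ACER2 and RPS27L.

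Over the 35 targets the median difference was 1.03 in HN4/DDP and 0.56 in HN30/DDP, beside -0.07 and 0.05 over all genes. A difference above 0 was measured for 31 of 35 targets in HN4/DDP (88.6%, beside 44.6% of all genes) and for 23 of 35 in HN30/DDP (65.7%, beside 52.8%). In both lines 10 targets were higher, against 3.92% of all genes, and 0 were lower in both, against 1.72%. These 10 were CDKN1A, GDF15, BTG2, PLK3, ZMAT3, TNFRSF10B, TNFRSF10C, RRM2B, SPATA18 and ANKRA2. At a stricter threshold of 2, 7 targets were higher and 0 lower in HN4/DDP, beside 3.62% and 2.19% of all genes, and 6 were higher and 1 lower in HN30/DDP, beside 8.35% and 2.76%. Past that threshold in both lines were 5 targets, GDF15, CDKN1A, BTG2, ZMAT3 and SPATA18, beside 1.02% of all genes, and 0 were lower in both, beside 0.119%. With the normexp background correction these 5 became 2, GDF15 and BTG2, and with median scaling 3, those and CDKN1A. In HN30/DDP SPATA18 stood at 1.86 and 1.67 under these settings. A further 9 were higher past 1 in HN4/DDP only, beside 4.62% of all genes, while TP53INP1 and NINJ1, 2 of 35, were higher in HN30/DDP only, beside 15% of all genes. No test of that contrast of the lines was possible. The threshold ran close to some targets: in HN4/DDP FDXR lay just above it at 1.01 and TNFRSF10A just below it at 0.94. In HN30/DDP TNFRSF10B lay above it at 1.03 (1.62 after quantile normalization and 0.61 with median scaling) and CYFIP2 below it at 0.94.

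**Figure D1:**
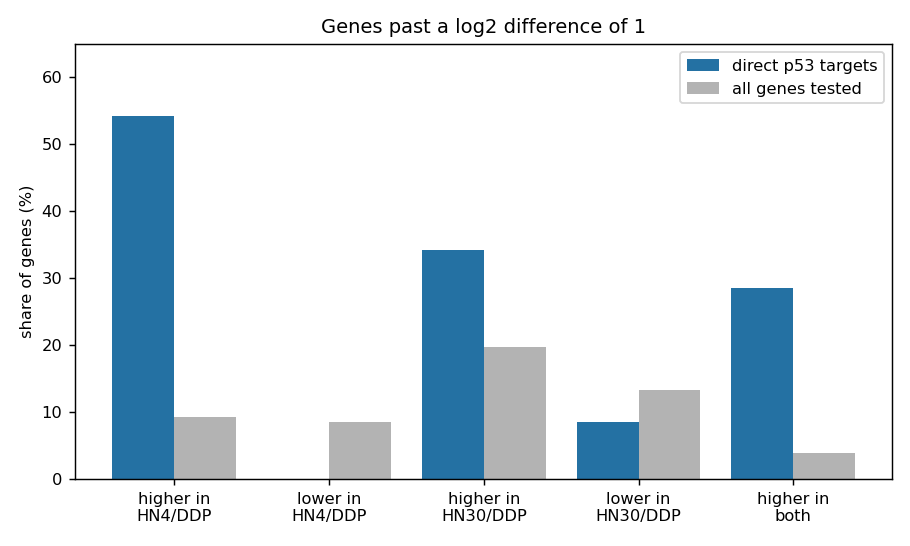
Share of genes past a log2 difference of 1, in percent, for the 35 direct p53 targets (blue bars) and for all genes tested (grey bars), by line and direction. The blue bar stands at 54.3% for genes higher in HN4/DDP beside a grey bar at 9.39%, and for genes lower in HN30/DDP the blue bar is the shorter of the pair.

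The only contrast with replication was that of all resistant with all parental arrays, fitted by limma with a term for the line over 29521 genes with 1 residual degree of freedom. With Benjamini-Hochberg adjustment 0 genes passed an adjusted p of 0.05 (0% of all genes), and the smallest adjusted p, 0.422, was that of GDF15. At an unadjusted p under 0.05, 2486 genes (8.42%) passed, 5.25% of all genes being higher and 3.17% lower. Among the targets 12 of 35 passed at that level and all 12 were higher in the resistant cells: CDKN1A, GDF15, TP53INP1, BTG2, TNFRSF10B, TNFRSF10C, RRM2B, DDB2, ZMAT3, PLK3, SPATA18 and ANKRA2. By limma the mean difference over both lines was 4.45 (SE 0.417) for GDF15, 3.04 (SE 0.444) for CDKN1A and 2.30 (SE 0.337) for ZMAT3, with adjusted p of 0.422, 0.436 and 0.436. These SE come from variances that limma moderated with those of all genes, so they do not measure a gene's own spread between the lines alone.

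p53 binds as a tetramer to a pair of decamers, each a copy of the p53 decamer consensus, and the sequences are shown because that element is what direct targets are said to share. The consensus is its own reverse complement, so a search of either strand finds the same matches. RefSeq promoter windows of GRCh38.p14, reaching from 250 bases before to 50 bases after a listed transcription start, were at hand for 28 of the 35 targets. An exact match to the decamer was found for 8 of these 28 targets (28.6%), while 8.06% of 27305 genes with a window held one. By window the share was 19.0% of 42 windows of the targets and 6.63% of all 35116. The decamers are printed in capitals, with flanking bases in lower case, each 5′ to 3′ on the strand of its gene:
DDB2, chr11:47214979-47214999, plus strand, first decamer from base 6, the start being base 1: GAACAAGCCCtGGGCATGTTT
FAS, chr10:88991284-88991343, plus strand, decamer from 122 bases before a start: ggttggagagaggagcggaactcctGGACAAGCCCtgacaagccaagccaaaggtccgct
SESN1, chr6:109009003-109009062, minus strand, decamer from 49 bases before a start: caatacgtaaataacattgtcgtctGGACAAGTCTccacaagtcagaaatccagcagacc
PLK2, chr5:58460184-58460243, minus strand, decamer from 132 bases before a start: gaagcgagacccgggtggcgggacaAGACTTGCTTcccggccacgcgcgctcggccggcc
FDXR, chr17:74872995-74873030, minus strand, decamer from 11 bases before a start: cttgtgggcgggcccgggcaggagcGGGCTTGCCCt
AEN, chr15:88621281-88621339, plus strand, decamer from 34 bases before a start: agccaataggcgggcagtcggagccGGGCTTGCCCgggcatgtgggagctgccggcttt
RPS27L, chr15:63157502-63157561, minus strand, decamer from 59 bases before a start: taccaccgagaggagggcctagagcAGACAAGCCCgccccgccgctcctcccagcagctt
EI24, chr11:125569442-125569476, plus strand, decamer from 10 bases before a start: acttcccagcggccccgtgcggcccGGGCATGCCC

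DDB2 was the only one of the 28 targets with a full pair of exact decamers at most 13 bases apart, and 10 of the 27305 genes (0.0366%) had such a pair. A match is a description of the letters in the window, and a target without one may carry its element elsewhere, since many p53 elements lie in introns or farther upstream. In HN4/DDP 6 of the 8 targets with a decamer were higher, and so were 10 of the 20 targets with a window but no decamer (8 of 20 with normexp), beside 9.39% of all genes. In HN30/DDP the counts were 0 of 8 and 8 of 20, beside 19.7% of all genes, and after quantile normalization 2 of 8 and 9 of 20. The median difference of the 8 was 1.28 in HN4/DDP and -0.21 in HN30/DDP, while that of the 20 was 0.90 and 0.66. After quantile normalization the median of the 8 in HN30/DDP was 0.30, so its sign depended on the scaling. With median scaling it was -0.62, with 4 of the 8 lower, and that of the 20 was 0.24, beside -0.37 over all genes at that scaling.

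**Figure D2:**
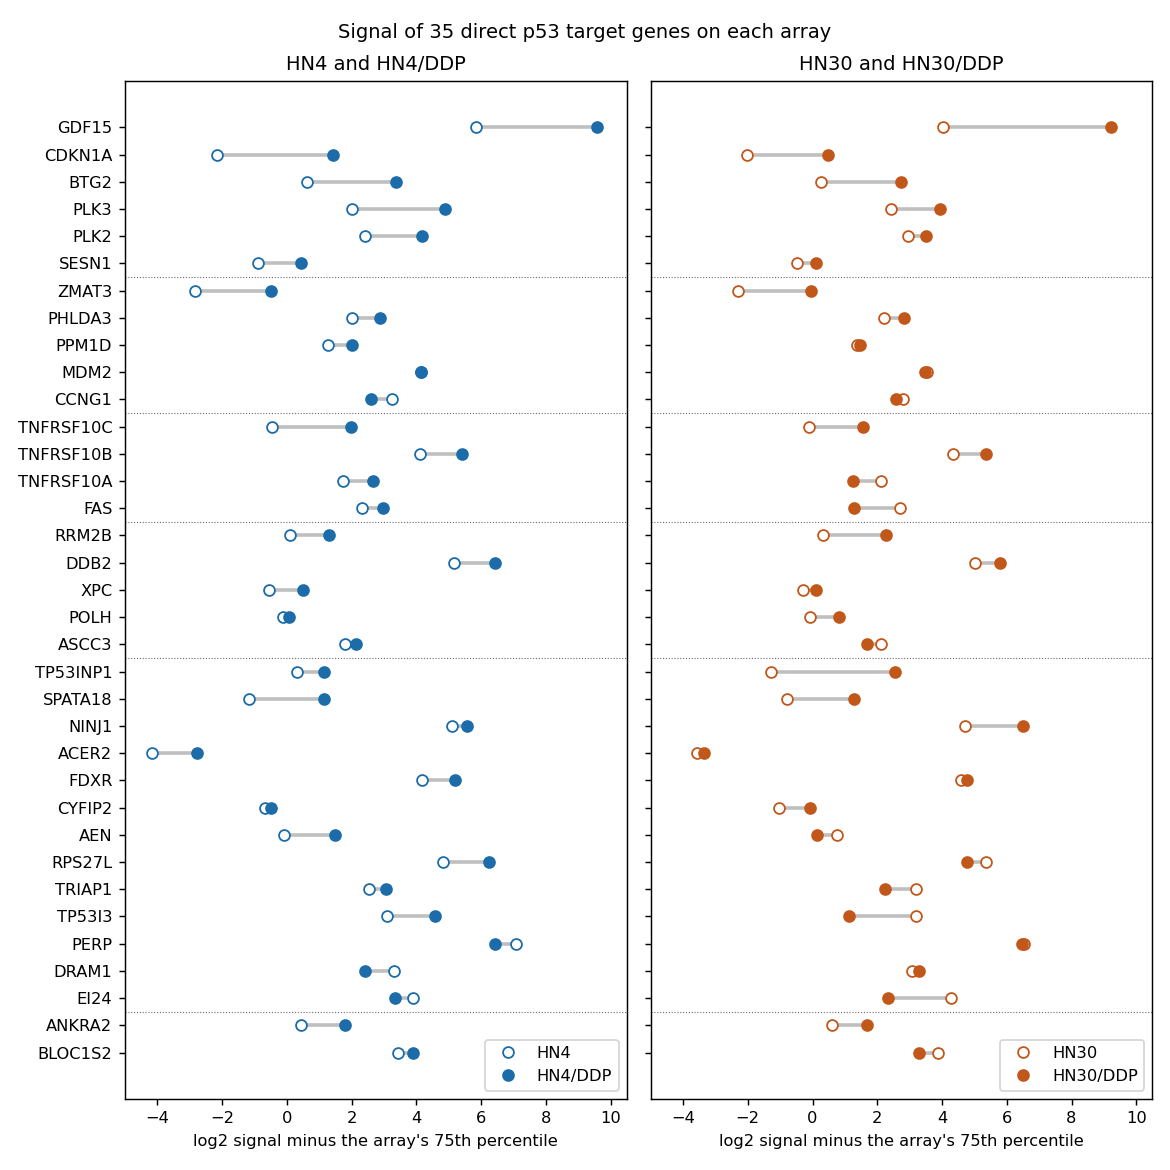
Level of each of the 35 targets on every array, as log2 signal minus the 75th percentile of the array, with open circles for the parental and filled circles for the resistant array of HN4 (blue) and HN30 (orange). Dotted lines part the role groups, and GDF15 in the top row reaches 9.58 in HN4/DDP and 9.22 in HN30/DDP.

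Of the targets that arrest the cell cycle or restrain growth, 6 of 6 were higher in HN4/DDP, beside 9.39% of all genes, and 4 of 6 in HN30/DDP, 66.7% beside 19.7%. Their median difference was 2.82 in HN4/DDP and 2.01 in HN30/DDP. All 6 had a difference above 0 in both lines under each scaling tried. CDKN1A encodes p21, the inhibitor of cyclin-dependent kinases through which p53 halts cells before DNA replication. Its level was -2.17 in HN4 against 1.42 in HN4/DDP, and -2.02 in HN30 against 0.48 in HN30/DDP. Both parental arrays were low and near each other, and both resistant arrays lay above them, with differences of 3.58 in HN4/DDP (11.99-fold) and 2.50 in HN30/DDP (5.64-fold). With the normexp background correction they were 2.96 and 1.97. The probe used for CDKN1A lies at chr6:36652178-36652237 of hg19.

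GDF15, a secreted factor of the transforming growth factor beta family that many cell stresses raise, had the largest difference of the 35 targets in both lines. It was measured at 5.85 in HN4 against 9.58 in HN4/DDP, and 4.05 in HN30 against 9.22 in HN30/DDP. Between the parental arrays HN30 minus HN4 was -1.80, and between the resistant arrays HN30/DDP minus HN4/DDP was -0.36, so the resistant arrays were the closer pair. The difference was 3.73 in HN4/DDP (13.3-fold, place 228 from the top among 26853 genes) and 5.17 in HN30/DDP (36.1-fold, place 87 among 28330).

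BTG2, an antiproliferative protein that helps shorten the tails of messenger RNAs, stood at 0.63 in HN4 against 3.38 in HN4/DDP, and 0.27 in HN30 against 2.75 in HN30/DDP. Its increase was of like size in both lines, 2.75 and 2.48. PLK3, a stress-responsive kinase of the polo-like family, stood at 2.003 in HN4 against 4.89 in HN4/DDP, and 2.41 in HN30 against 3.94 in HN30/DDP. The PLK3 difference was 2.88 for HN4 cells and 1.53 for HN30 cells. PLK2, its relative in the same kinase family, was higher by 1.75 in HN4/DDP, from 2.42 to 4.18. In HN30/DDP the PLK2 difference was 0.56, from 2.96 to 3.52, under the threshold, and was 1.006 after quantile normalization and 0.14 with median scaling. SESN1, a sestrin that restrains the growth kinase mTORC1, was higher by 1.32 in HN4/DDP and had a difference of 0.60 in HN30/DDP, with levels of -0.90, 0.43, -0.48 and 0.12 in the order HN4, HN4/DDP, HN30, HN30/DDP.

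Of the 5 feedback genes, whose products limit p53 or the signals around it, ZMAT3 was the only one that was higher, in both lines, and 0 were lower. That is 20% of the group in each line, beside 9.39% and 19.7% of all genes. Their median difference was 0.76 in HN4/DDP, while in HN30/DDP it was 0.08 and turned to -0.33 with median scaling, beside -0.37 over all genes at that scaling. ZMAT3, a zinc finger protein that binds RNA, had levels of -2.84 in HN4 against -0.48 in HN4/DDP, and -2.30 in HN30 against -0.06 in HN30/DDP. The increase was 2.35 and 2.24, and both resistant arrays were above both parental ones. With the normexp background correction it was 1.60 and 1.64, past the threshold of 1 but under 2.

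MDM2, the ligase that marks p53 for degradation and is a classical p53 target itself, had nearly the same level in resistant and parental cells on its brightest probe. That probe, at chr12:69238891-69238950 of hg19, gave 4.14 in HN4 against 4.16 in HN4/DDP, and 3.55 in HN30 against 3.47 in HN30/DDP, so the differences were 0.02 and -0.07. The other probes, at chr12:69233570-69233629 and chr12:69233822-69233881, gave 0.56 and 0.54 in HN4/DDP and 0.30 and 0.32 in HN30/DDP. No MDM2 probe passed the threshold in either line.

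PPM1D, the phosphatase WIP1 that switches off damage kinases, had differences of 0.76 in HN4/DDP and 0.08 in HN30/DDP on its brightest probe. Its other probe gave 0.70 and -0.38. PHLDA3, an inhibitor of AKT, had differences of 0.86 and 0.61 on its brightest probe and of -0.24 and 0.18 on the other. CCNG1, cyclin G1, stood at 3.26 in HN4 against 2.60 in HN4/DDP, and 2.80 in HN30 against 2.59 in HN30/DDP, which is -0.66 and -0.21. The other CCNG1 probe gave -0.42 and 0.001. None of these 3 genes passed the threshold in either line.

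Among the 4 death receptor genes TNFRSF10C and TNFRSF10B, which bind the ligand TRAIL, were higher in both lines, beside 3.92% of all genes, and FAS was lower in HN30/DDP, beside 13.3%. TNFRSF10C, a decoy receptor that binds TRAIL without passing on a death signal, was measured at -0.47 in HN4 against 1.97 in HN4/DDP, and -0.11 in HN30 against 1.57 in HN30/DDP. The increase was 2.44 for HN4/DDP and 1.67 for HN30/DDP. TNFRSF10B encodes the signalling receptor DR5 and stood at 4.11 in HN4 against 5.41 in HN4/DDP, and 4.33 in HN30 against 5.36 in HN30/DDP. TNFRSF10B was higher by 1.29 and 1.03, and for HN30/DDP median scaling left 0.61, under the threshold.

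FAS, the receptor of FAS ligand, had a level of 2.33 in HN4 against 2.98 in HN4/DDP, and 2.71 in HN30 against 1.27 in HN30/DDP. Its lowest array was HN30/DDP, where it fell by 1.45 on the log2 scale from HN30 (2.72-fold lower), while HN4/DDP differed from HN4 by 0.64. The 3 FAS probes gave -1.34 to -1.45 in HN30/DDP and 0.48 to 0.75 in HN4/DDP. TNFRSF10A, the signalling receptor DR4, was measured at 1.74 in HN4 against 2.67 in HN4/DDP, and 2.11 in HN30 against 1.26 in HN30/DDP. Its differences, 0.94 and -0.86, ran the same way as those of FAS and lay just under the threshold, which 1.02 passed in HN4/DDP after quantile normalization and -1.27 in HN30/DDP with median scaling.

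**Figure D3:**
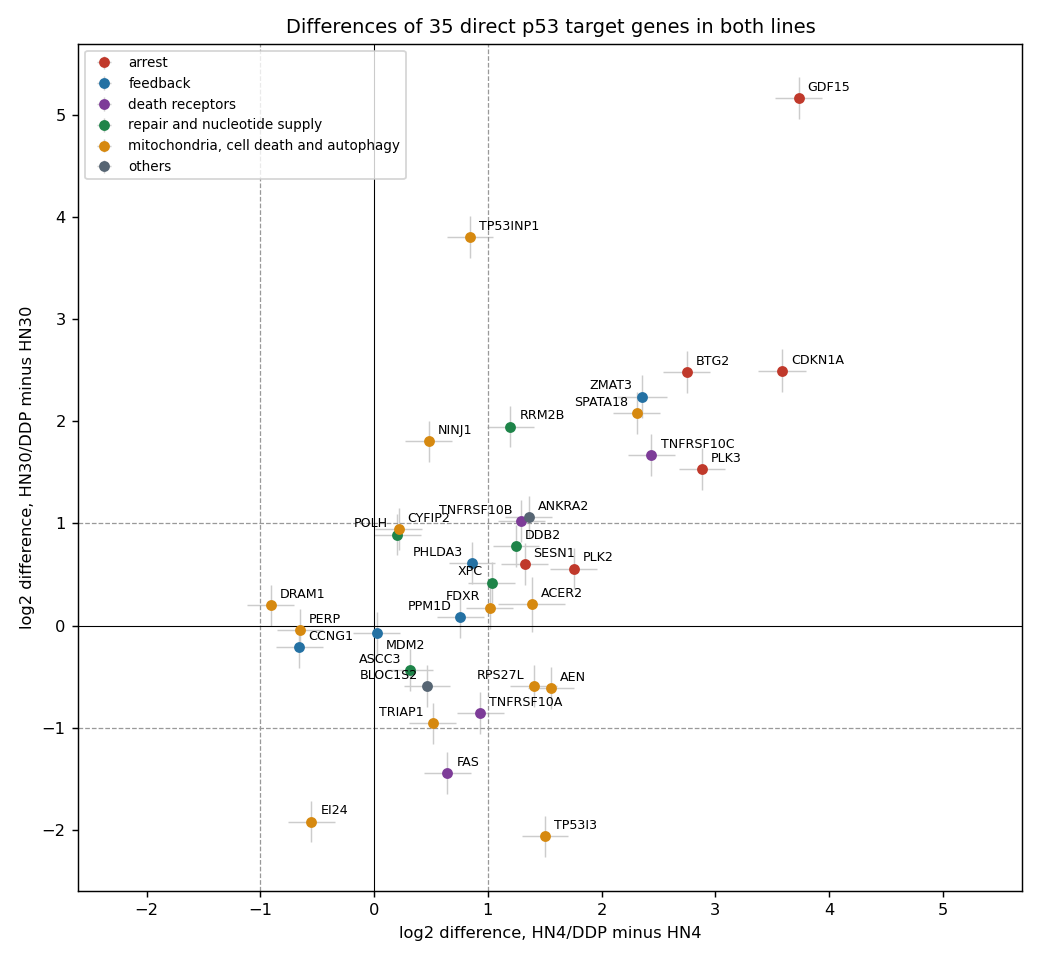
Difference of each target in HN4/DDP minus HN4 (horizontal axis) and in HN30/DDP minus HN30 (vertical axis), log2, coloured by role, with bars of 1 SD of the scanner's spot error and dashed lines at a difference of 1 in either direction. GDF15, CDKN1A, BTG2, ZMAT3 and SPATA18 lie at the upper right, TP53INP1 at the top near the middle, and TP53I3 and FAS at the lower right.

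In the repair and nucleotide supply group 3 of 5 genes were higher in HN4/DDP (60%, beside 9.39% of all genes). In HN30/DDP it was 1 of 5, 20% beside 19.7%, which became 3 of 5 after quantile normalization and stayed 1 of 5 with median scaling. RRM2B, the p53-inducible subunit of ribonucleotide reductase, which makes deoxynucleotides for repair, was higher in both. Its level was 0.09 in HN4 against 1.29 in HN4/DDP, and 0.33 in HN30 against 2.28 in HN30/DDP, so its difference was larger in HN30/DDP (1.95) than in HN4/DDP (1.20), and the other RRM2B probe gave 2.04 and 1.25.

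DDB2, which recognises ultraviolet and other bulky lesions for nucleotide excision repair and whose pair of decamers is printed above, was measured at 5.18 in HN4 against 6.42 in HN4/DDP, and 5.01 in HN30 against 5.79 in HN30/DDP. It was higher by 1.25 in HN4/DDP, and in HN30/DDP the difference of 0.78 stayed under the threshold at this scaling. The HN30/DDP difference of DDB2 was 1.40 after quantile normalization and 0.36 with median scaling. The other DDB2 probe gave 1.34 in HN4/DDP and 0.36 in HN30/DDP. XPC, the damage sensor of the same pathway, was higher by 1.03 in HN4/DDP, from -0.54 to 0.50, and by 0.91, under the threshold, with the normexp background correction. In HN30/DDP the XPC difference was 0.42. POLH, the polymerase that copies past platinum adducts, had differences of 0.20 and 0.89 (1.003 after quantile normalization and 0.48 with median scaling). Its other probe gave 0.57 and 0.51. ASCC3, a helicase of alkylation repair, had differences of 0.32 and -0.43.

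Of the 13 targets of mitochondria, cell death and autophagy, 6 were higher in HN4/DDP (46.2%, beside 9.39% of all genes). In HN30/DDP 3 were higher and 2 lower (23.1% and 15.4%), near the shares of all genes, 19.7% and 13.3%, and 1 was higher in both lines. The 2 lower genes became 5 with median scaling, with a group median of -0.24, beside -0.37 over all genes at that scaling. The gene higher in both was SPATA18, which takes part in the removal of damaged mitochondrial proteins. It stood at -1.17 in HN4 against 1.14 in HN4/DDP, and -0.80 in HN30 against 1.29 in HN30/DDP. Both resistant arrays were above both parental ones, by 2.31 and 2.08.

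TP53INP1, a stress protein that promotes p53 phosphorylation and autophagy, was measured at 0.30 in HN4 against 1.15 in HN4/DDP, and -1.27 in HN30 against 2.53 in HN30/DDP. HN30 was the lowest array and HN30/DDP the highest, a difference of 3.81, against 0.85 in HN4/DDP. Its other probe was not well above background in HN30 and was at least 8.22-fold higher in HN30/DDP. NINJ1, a membrane protein that ruptures the plasma membrane of dying cells, was higher by 1.80 in HN30/DDP, from 4.70 to 6.51, and differed by 0.48 in HN4/DDP.

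TP53I3, a quinone oxidoreductase also known as PIG3 that is linked to oxidative stress in p53-driven apoptosis, moved in opposite directions. Its level was 3.08 in HN4 against 4.58 in HN4/DDP, and 3.19 in HN30 against 1.12 in HN30/DDP. The parental arrays were within 0.11 of each other, while HN30/DDP minus HN4/DDP was -3.46. TP53I3 was higher by 1.50 in HN4/DDP (2.83-fold) and lower in HN30/DDP, where the level fell by 2.07 on the log2 scale (4.19-fold lower). Its other probe gave 1.57 and -2.10.

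AEN, a p53-induced nuclease of apoptosis, was measured at -0.08 in HN4 against 1.47 in HN4/DDP, and 0.76 in HN30 against 0.15 in HN30/DDP. It was higher by 1.56 in HN4/DDP and its difference in HN30/DDP was -0.61, with 1.61 and -0.64 on the other probe. RPS27L, a ribosomal protein paralogue that p53 raises, had levels of 4.83, 6.23, 5.37 and 4.78 in the order HN4, HN4/DDP, HN30, HN30/DDP. It was higher by 1.40 in HN4/DDP, and the difference of -0.59 in HN30/DDP became 0.01 after quantile normalization. With the deposited log2 table the RPS27L difference in HN30/DDP was -0.05, and with the brightness trend removed -0.12. RPS27L has a near copy in RPS27, and cross-hybridisation of its probe was not tested.

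EI24, a protein of the endoplasmic reticulum with a part in autophagy, stood at 3.91 in HN4 against 3.36 in HN4/DDP, and 4.27 in HN30 against 2.34 in HN30/DDP. It was lower in HN30/DDP, where the level fell by 1.92 on the log2 scale, and differed by -0.55 in HN4/DDP. FDXR, the mitochondrial ferredoxin reductase, was higher by 1.01 in HN4/DDP and differed by 0.17 in HN30/DDP. ACER2, a ceramidase of the Golgi, was higher by 1.39 in HN4/DDP on its brightest probe, but its other probe gave 0.03 there, and the mean of both probes was 0.71, under the threshold. With the normexp background correction the ACER2 difference was 0.57.

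At this scaling the last 4 genes of that group did not pass the threshold in either line. TRIAP1, a mitochondrial protein that restrains apoptosis, had differences of 0.51 and -0.96, the latter -1.37 with median scaling. PERP, a desmosomal protein of epithelia, gave -0.65 and -0.04, the latter 0.48 after quantile normalization. DRAM1, a lysosomal membrane protein of autophagy, differed by -0.91 in HN4/DDP and 0.20 in HN30/DDP. CYFIP2, a part of the WAVE complex of the actin cytoskeleton, differed by 0.22 and 0.94, and by 0.85 and 0.94 on its other probe.

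Of the remaining targets, ANKRA2, an ankyrin repeat protein, was measured at 0.43 in HN4 against 1.79 in HN4/DDP, and 0.60 in HN30 against 1.67 in HN30/DDP. Its increase was 1.36 and 1.07, the latter 0.65 with median scaling. BLOC1S2, a subunit of a complex that acts on lysosome-related organelles, had differences of 0.47 and -0.59.

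Compared directly, HN30 had the higher median of the targets among the parental arrays and HN30/DDP the lower among the resistant arrays. Between the parental arrays, HN30 minus HN4, the median over the 35 targets was 0.23, beside 0.03 over all genes. Between the resistant arrays, HN30/DDP minus HN4/DDP, it was -0.44, beside 0.11 over all genes. The difference from the parental array was larger in HN4/DDP for 26 of the 35 targets (74.3%) and had opposite signs in the lines for 10. Over all 29521 genes it was larger in HN4/DDP for 46.4%, and the signs were opposite for 12879. Pearson's r between the differences of the lines was 0.60 over the 35 targets and 0.22 over all genes, given as a description, since the genes share the same 4 arrays and are not independent.

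Probes of the same gene mostly gave like differences. There were 50 probes for the 35 targets, 22 genes with 1 probe and 13 with several. The signs of a gene's probes were the same for 12 of the 13 genes in HN4/DDP and for 9 in HN30/DDP, and the median spread between the probes of a gene was 0.24 and 0.30 (log2). The widest spread was that of ACER2 in HN4/DDP, 1.36, and PHLDA3 had the next widest there.

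**Figure D4:**
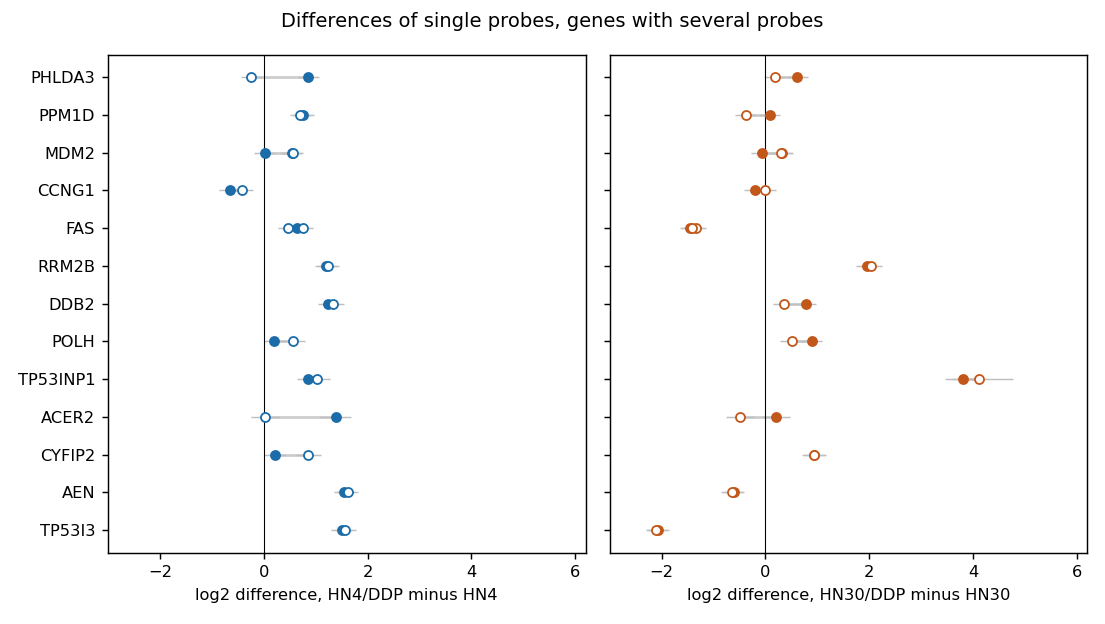
Differences of the single probes of the 13 targets with several probes, log2, for HN4/DDP minus HN4 (left) and HN30/DDP minus HN30 (right), with a filled circle for the brightest probe, open circles for the others and thin bars of 1 SD of the scanner's spot error. The probes of TP53I3 and FAS lie close together on opposite sides of 0 in the lines, and those of ACER2 and PHLDA3 lie apart in HN4/DDP.

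Of 22 listed regulators of p53, 0 were higher and 2 lower in HN4/DDP, the latter 9.09% beside 8.57% of all genes. In HN30/DDP 2 were higher, 9.09% beside 19.7%, and 6 were lower, 27.3% beside 13.3%. The list had medians of -0.24 and -0.43. With median scaling the counts in HN30/DDP were 0 higher and 10 lower, with a list median of -0.84, beside -0.37 over all genes at that scaling. MDM4, which inhibits p53 beside MDM2, was higher by 1.37 in HN30/DDP and differed by -0.15 in HN4/DDP. CREBBP, a coactivator that acetylates p53, was the 1 regulator past the threshold in both lines, with differences of -1.60 and -1.21. The relatives TP63 (-0.81 and -0.06) and TP73 (0.76 and -0.18) did not pass the threshold in either line.

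A separate list of 43 other reported p53 targets had a smaller share of higher genes in HN4/DDP than the 35 direct targets, with 11 of 42 tested genes higher (26.2%, beside 9.39% of all genes) and 4 lower (9.52%, beside 8.57%). In HN30/DDP 11 of 41 were higher (26.8%, beside 19.7%) and 1 was lower (2.44%, beside 13.3%). Its median was 0.54 in HN4/DDP and 0.37 in HN30/DDP. With median scaling the HN30/DDP split turned to 5 higher and 8 lower, with a median of -0.04, beside a median of -0.37 over all genes at that scaling. In both lines 8 of its genes were higher (19.0%, beside 3.92%). BBC3, the apoptosis inducer PUMA, was among them, at 2.49 in HN4 against 3.95 in HN4/DDP, and 2.12 in HN30 against 4.01 in HN30/DDP. TP53I11 was dim (not well above background) in HN4 and HN30 and was at least 13.1-fold higher in HN4/DDP and at least 3.86-fold higher in HN30/DDP. IGFBP3, a binding protein of insulin-like growth factors, was the 1 gene of this list that was lower in both lines, falling by 3.12 and 1.69 on the log2 scale.

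The cell cycle genes that p53 is known to lower through p21 and the DREAM repressor complex were lower in HN30/DDP, while few of them passed the threshold in HN4/DDP. All 25 had a difference below 0 in both lines, except that in HN4/DDP 1 lay above 0 with median scaling, with the deposited log2 table or with the brightness trend removed, and 2 after quantile normalization. The threshold was passed by 3 in HN4/DDP (MCM4, MKI67 and FOXM1), 12% beside 8.57% of all genes, and by 25 in HN30/DDP, beside 13.3%, the latter 23 after quantile normalization. Their median was -0.47 in HN4/DDP and -1.94 in HN30/DDP. MCM4, a subunit of the replication helicase, was measured at 3.61 in HN4 against 2.13 in HN4/DDP, and 4.09 in HN30 against 1.31 in HN30/DDP. MKI67, the Ki-67 proliferation antigen, was at 3.27, 2.18, 3.01 and 1.37 on the same arrays. HN30/DDP had the smaller share of higher p53 targets and the lower median of the cell cycle genes, with no test of either difference between lines.

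**Figure D5:**
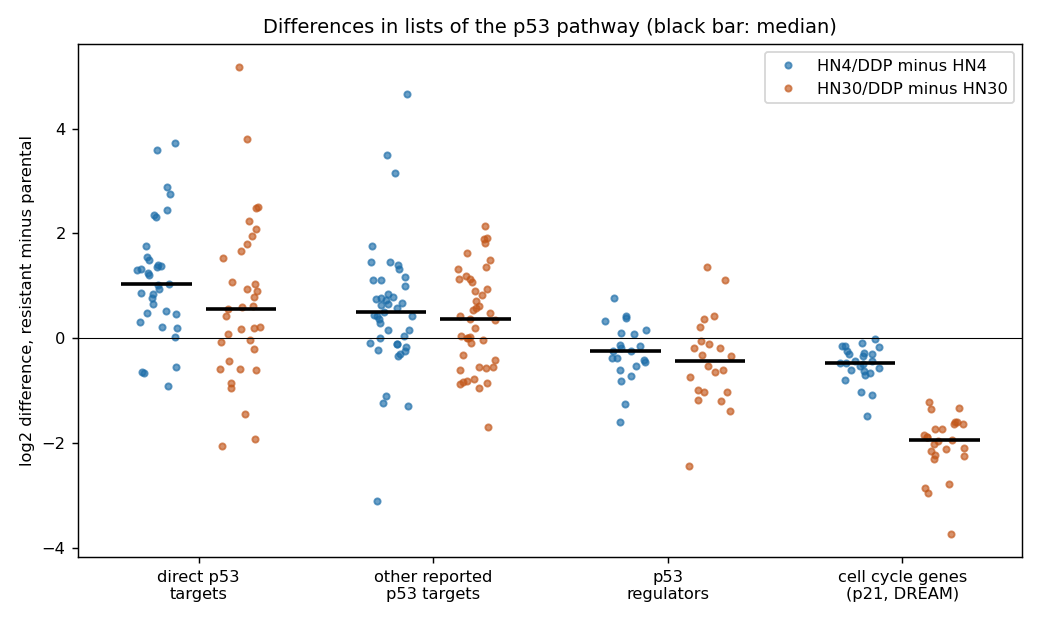
Difference of every gene of the direct p53 targets, the other reported p53 targets, the p53 regulators and the cell cycle genes, log2, resistant minus parental, with blue points for HN4/DDP and orange points for HN30/DDP and a black bar at the median. The direct targets have medians of 1.03 and 0.56, and every cell cycle gene lies below 0 at this scaling, with a median of -1.94 in HN30/DDP.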

How the data were processed

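RNA of the parental and resistant cells was measured on 4 single-colour arrays. The processed intensity of every spot was taken from scanner files that the authors deposited, made with Agilent Feature Extraction 10.7.1.1 per the submitters' processing notes. Per the file headers the software had subtracted the background and flagged outlier spots, and the probe coordinates are hg19. A second deposited file, of log2 values, served as an alternative, and its differences correlated with those from the scanner values with r = 0.996 in HN4 and 0.958 in HN30 over 58183 probes. No source used here states how that table was normalized or whether the arrays came from separate cultures.

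Control and outlier spots (140 to 204 of 60901 an array) were left out. The log2 intensity was scaled to the 75th percentile of the array (signals of 444 to 496), and the probe with the highest mean stood for a gene. Between 23950 and 27625 genes an array were well above background. Python 3.11.15, numpy 2.4.6, pandas 2.3.3, statsmodels 0.14.6, R 4.3.3 and limma 3.58.1 were used. limma (eBayes with a trend, line as a block) was tested on simulated data. Every target is named, as are TP63, TP73 and MDM4 and, of the other lists, the 3 genes with the largest smaller difference among those past 1 in the same direction in both lines. The keratins, leukocyte and fibroblast markers and CREBBP were named after their values were seen. The targets and lists were chosen with earlier results of these data known. All 35 targets matched a RefSeq symbol of GRCh38.p14. The exons under the probes were not looked up, sequences on chromosome 8 are not shown, and a gene that the rule also names is not reported here.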

Additional observations from a re-analysis of the deposited data

Results flagged for a closer look

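For 4 of the targets the difference in HN4/DDP and that in HN30/DDP had opposite signs, each larger in size than 2 SD of the scanner's spot error and at least 1 of them past the threshold of 1, and with 1 array for each condition that contrast between lines was not tested. Opposite signs alone were common, in 10 of the 35 targets and in 12879 of 29521 genes. The share of all genes that meet the full rule is not given, so the count of 4 has no background. The difference in HN4/DDP minus that in HN30/DDP was 3.57 for TP53I3, 2.09 for FAS, 2.17 for AEN and 1.99 for RPS27L (log2). In each of the 4 genes HN4/DDP lay above HN4 and HN30/DDP lay below HN30, except that the RPS27L difference in HN30/DDP was 0.01 after quantile normalization. That RPS27L difference was -0.05 with the deposited log2 table and -0.12 with the brightness trend removed. Under each of these settings it lay within 1 scanner SD (0.20) of 0.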

How the results depend on the processing

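Background correction, scaling, pseudocount, source table and probe choice left 17 to 20 targets higher in HN4/DDP, 10 to 15 in HN30/DDP and 8 to 12 in both. The dim-signal treatment and a filter on dim probes could not change these counts, since all 35 targets were well above background on every array. Quantile normalization gave a median of 0.76 in HN30/DDP. Median scaling gave 0.14 there, with 8 targets lower, beside a median of -0.37 over all genes. At a threshold of 2, 7 targets were higher in HN4/DDP (3.62% of all genes), 6 in HN30/DDP (8.35%) and 5 in both (1.02%), and 1 was lower in HN30/DDP. Removing the trend of differences on brightness, an alternative chosen after seeing the data, gave 19, 14 and 11 higher. Of 560 single differences under the alternatives, 431 moved by less than the scanner SD and 129 by more, and 0 of those past the threshold changed sign. The 431 include differences that could not move. These are all those under the dim-signal bound, and those of the 22 targets with 1 probe under the mean of probes. Above 1 under each of 9 settings were 17 targets in HN4/DDP, 10 in HN30/DDP and 8 in both. limma called 0 genes at a Benjamini-Hochberg adjusted p of 0.05 under each of its alternatives, with smallest adjusted p of 0.223 without the line block to 0.676 with normexp, and 10 to 17 targets at an unadjusted p under 0.05, beside 6.87% to 11.0% of all genes, both counts being highest without the line block. By replicate number no paired analysis was possible because the labels give each condition only a replicate 1, while the line block of limma paired each resistant array with its parental array. Leaving out an array was not run, since the fit then has no residual degree of freedom. Dim parental signals limit TP53I11 and the dimmer TP53INP1 probe to bounds.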
